A study of Drosophila melanogaster with 6 samples.

Results

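Heat shock proteins and J-domain chaperones were examined in progenitor cells of the adult Drosophila midgut, which are intestinal stem cells (ISC) and enteroblasts (EB), after RNA interference (RNAi) against linker histone H1. The group was taken by name: every row of the expression table whose FlyBase symbol begins with Hsp, Hsc or DnaJ, plus Hsf, stv, Droj2 and mrj. This gave 32 of the 17807 genes in the table. Symbols in capitals (HSPC300 and HSPBAP1) were not counted, since they name proteins that are not heat shock proteins. Of the 32 genes, 25 reached 1 TPM (a length-scaled share of the transcripts of a library) in at least 3 of the 6 libraries and were tested.

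The study holds 3 H1 RNAi libraries, from flies that carried the construct UAS H1 RNAi 1 besides esgts, UAS-GFP, and 3 control libraries from flies with esgts, UAS-GFP alone. In both groups a temperature-sensitive esg driver marks progenitors with GFP, and each replicate is a pool of 70 guts from which GFP-positive cells were sorted after elastase dissociation. The sample labels name 4 days of induction at 29 °C in both groups. The growth protocol, which speaks of another transgene, names 1 day at 29 °C after 18 °C, with flies aged 3 days, so the length of the warm period behind these heat-responsive genes is uncertain. One RNAi construct was used, no library without the shift to 29 °C is among the samples, and the origin of the replicates (separate crosses or days) is not stated, so p-values describe only how these samples spread, which may be technical.

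Heat shock proteins keep other proteins folded. Cytosolic Hsp70 and its constitutive cognates bind exposed hydrophobic stretches, J-domain proteins deliver clients and trigger ATP hydrolysis, and nucleotide exchange factors such as Hsp110 and BAG proteins release them. Hsp90 matures kinases and receptors, small heat shock proteins hold unfolded clients, and Hsp60 folds proteins inside mitochondria. The transcription factor Hsf switches on the inducible genes when unfolded proteins accumulate. In the fly midgut, protein folding stress in the endoplasmic reticulum (ER) of stem cells is known to affect their proliferation.

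Part of the chaperones were abundant in these progenitors, with 13 of the 32 members at a mean of at least 100 TPM. None of the tested members passed the test for a difference between H1 RNAi and control. Of 25 tested members, 0 were higher and 0 were lower at an adjusted p of 0.05 (limma on log2(TPM + 1), Benjamini-Hochberg adjustment over all 8124 tested genes), against 2.28% of all tested genes called higher, 0.554% lower and 2.83% in all. At an unadjusted p under 0.05 (limma) there were 3 members, all lower in H1 RNAi (Hsp70Bbb, Hsp70Ba and Hsf), or 12% of those tested. That stands against 23.8% of all tested genes, with 19.1% higher and 4.75% lower. The median log2 fold change of the members was -0.22, with 8 positive and 17 negative values, while the median of all tested genes was 0.14. Of the negative values, 5 belong to Hsp70 copies, and with the 6 copies summed to 1 value the median was -0.11 over 20 members. With the copies counted separately, the median of the 25 members was -0.35 with trimmed-mean scaling and -0.29 with quantile normalization. The median of all tested genes went with the scaling, at 0.01 with trimmed-mean scaling and -0.01 with quantile normalization. The share of all calls that were higher was 80.4%, 62.4% and 56.8% under the deposited, trimmed-mean and quantile scalings. The values of the H1 RNAi and control libraries did not overlap for 7 members, 2 higher (mrj and DnaJ-H) and 5 lower (Hsf, Droj2, Hsp70Ba, Hsp70Bbb and Hsp70Bc). That is 28% of the tested members, against 30.8% of all tested genes, with 24.3% higher and 6.45% lower. The Hsp70 copies count separately here and in the count at an unadjusted p, although the split of reads between them is uncertain. Their sum overlapped between the groups, at 219 to 304 TPM in H1 RNAi and 218 to 403 TPM in control.

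Among whole-library properties, between 8011 and 8145 genes per H1 RNAi library and between 7767 and 8316 per control library reached 1 TPM, and depth is unknown. The RNAi target could not be checked, since all 23 His1 copies were listed at 0 in all 6 libraries. Progenitor markers were present (14 of 14 matched names with a mean of at least 1 TPM, summed level 3151 to 3373 TPM in H1 RNAi and 2848 to 3511 TPM in control), and esg and Dl are not analysed here. Summed enteroendocrine markers (16 genes, none at 0 throughout) were at 1160 to 1704 TPM in H1 RNAi and 2581 to 3437 TPM in control. Most of it came from NPF, at 891 to 1331 TPM in H1 RNAi and 1964 to 2616 TPM in control. Tk, IA-2, Pal2, 7B2, amon, pros, Rab3 and nSyb were also lower in H1 RNAi without overlap. Mip (7.12 to 15.3 TPM in H1 RNAi, 2.28 to 5.64 TPM in control) and CCHa2 were higher without overlap. Orcokinin, AstC, CCHa1, AstA and Dh31 overlapped. Summed enterocyte markers (13 genes) were at 852 to 2041 TPM in H1 RNAi and 635 to 1632 TPM in control, and visceral muscle markers (3 of 13 with a mean of at least 1 TPM) at 47.0 to 61.6 TPM in H1 RNAi and 34.9 to 56.6 TPM in control. Hemocyte markers (3 of 8 at that level) were at 182 to 202 TPM in H1 RNAi and 194 to 245 TPM in control, nearly all of it from crq, while Hml, NimC1, eater, He and Pxn were at 0.17 TPM or less in each library. Tracheal markers (2 of 7) were at 73.6 to 93.6 TPM in H1 RNAi and 11.2 to 21.3 TPM in control. That difference came from dysf alone, at 56.0, 78.4 and 67.3 TPM in H1 RNAi A, B and C and at 0.02 TPM or less in control, while btl overlapped (8.51 to 16.5 TPM in H1 RNAi and 9.64 to 19.7 TPM in control) and Gasp, trh and verm were at 0.15 TPM or less. Ovary markers (2 of 8, with Cp16 at 0 throughout) were at 1.48 to 3.29 TPM in H1 RNAi and 1.43 to 8.35 TPM in control. The part of these cell types in the chaperone values was not tested, and fewer cells of a type and less RNA per cell cannot be told apart in such bulk samples.

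**Figure D1:**
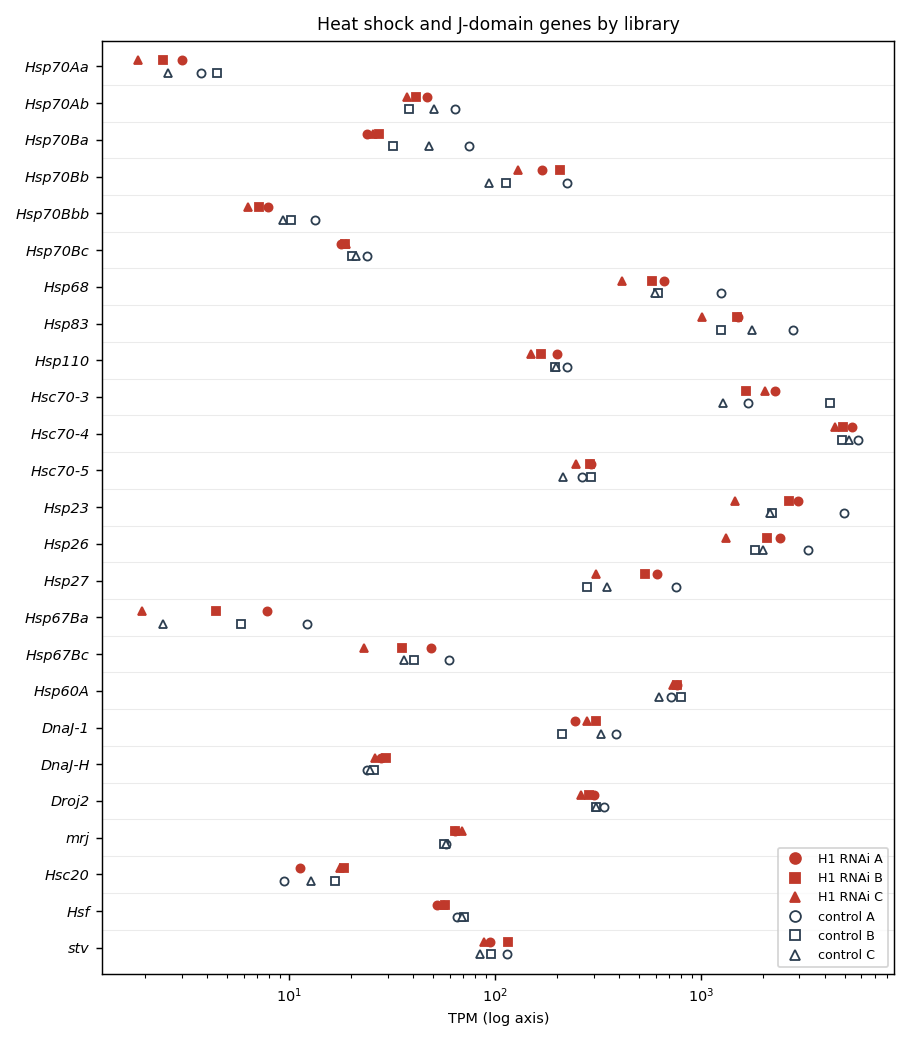
TPM of the 25 tested heat shock and J-domain genes (log axis) in each library, with filled red symbols for H1 RNAi and open symbols for control, and circles, squares and triangles for replicates A, B and C. Hsc70-4 is the highest gene in every library, and Hsp70Aa is below 5 TPM in every library. Control A is the highest of the 6 libraries for 16 of the 25 genes, against 12.2% of all tested genes.

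The mean of the tested members over the 6 libraries ran from 3.01 TPM (Hsp70Aa) to 5091 TPM (Hsc70-4). The 32 genes together took 1.82%, 1.63% and 1.32% of all TPM in H1 RNAi libraries A, B and C and 2.32%, 1.76% and 1.55% in control libraries A, B and C. Hsc70-4, Hsp23, Hsc70-3, Hsp26 and Hsp83 each averaged at least 1000 TPM over the 6 libraries, and 13 members averaged at least 100 TPM. Hsc70-4 ranked at position 56 of the whole table by mean TPM. At the other end, 7 members did not reach the filter. Hsp22, Hsp60B, Hsp60C and DnaJ-60 were listed at 0 in all 6 libraries, and Hsc70-1, Hsc70-2 and Hsp60D were at 0.31 TPM or less in each. For a pair of the genes at 0 the annotation overlaps: all 1900 exonic bases of Hsp22 lie within CG4456 (earlier name Hsp67Bb) on the same strand, and all 1472 of DnaJ-60 within CG42568. CG4456 was at 0.06 TPM or less and CG42568 at 0 in each library. The sources used here do not state how reads that match more than 1 gene were counted, so these zeros are listings and not measured absences.

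Hsf, the transcription factor that drives the heat shock response (2R, 18130303 to 18134634 in BDGP6.54, minus strand), was at 51.9, 57.0 and 56.6 TPM in H1 RNAi libraries A, B and C, against 65.0, 70.1 and 69.1 TPM in control A, B and C. Every H1 RNAi value lay below every control value. The log2 fold change was -0.30 ± 0.10 (SE), with a 95% interval of -0.53 to -0.07 and an adjusted p of 0.131 (limma), so it did not pass over all genes. Hsf varied little between replicates, with a within-group SD of 0.0662 on the log2 scale, against 0.192 for the median tested gene. Its sign was negative and its call unchanged under all 16 alternative settings, with adjusted p of 0.103 to 0.329.

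The heat-inducible cytosolic Hsp70 proteins are encoded by 6 near-identical genes without introns at 2 sites on chromosome arm 3R. At 87A, Hsp70Aa (11954163 to 11956544) and Hsp70Ab (11958535 to 11960909) lie 1990 bp apart and point away from each other. At 87C, Hsp70Ba (12465453 to 12467776) stands 34733 bp from a tandem of Hsp70Bbb (12502510 to 12504856), Hsp70Bb (12505793 to 12508139) and Hsp70Bc (12509076 to 12511461), whose members are 936 bp apart. As the handling of reads that match several copies is not stated, the split between copies is uncertain and their sum is the firmer value. Summed over the 6 copies, Hsp70 was at 268, 304 and 219 TPM in H1 RNAi A, B and C and at 403, 218 and 224 TPM in control A, B and C. The groups overlapped, and control A stood above the other libraries. Entered as 1 row in the fit, the sum had a log2 fold change of -0.05 ± 0.26 (SE), a 95% interval of -0.66 to 0.56 and an adjusted p of 0.931 (limma).

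**Figure D2:**
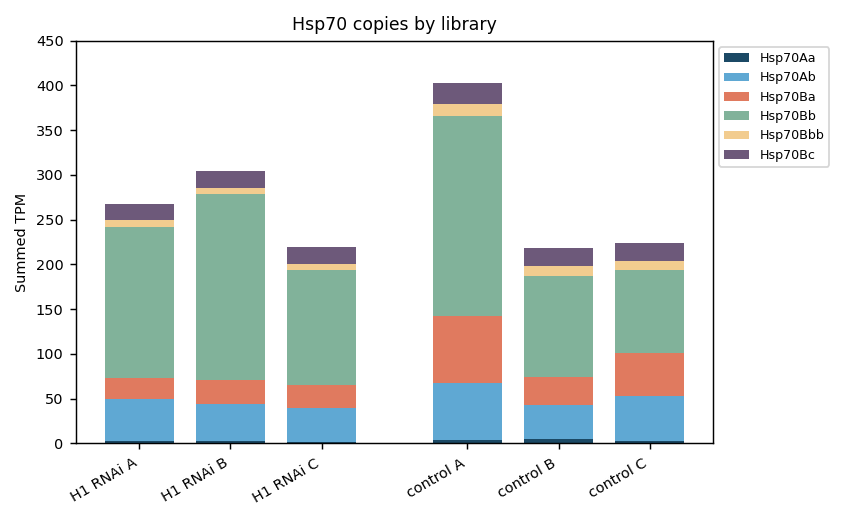
Stacked TPM of the 6 Hsp70 copies in each library (bars start at 0), with the H1 RNAi libraries left and the control libraries right. The total runs from 219 to 304 TPM in H1 RNAi and from 218 to 403 TPM in control, and Hsp70Bb makes up 59.0% to 68.1% of it in H1 RNAi and 41.6% to 55.5% in control.

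The deposited values split that sum unevenly. Hsp70Bb held 63%, 68.1% and 59.0% of it in H1 RNAi A, B and C, against 55.5%, 52.0% and 41.6% in control A, B and C. Hsp70Ba held 8.90%, 8.99% and 11.6% in H1 RNAi, against 18.6%, 14.6% and 21.3% in control. Neither share overlapped between the groups, nor did that of Hsp70Bbb (2.34% to 2.95% in H1 RNAi, 3.29% to 4.66% in control). The shares of Hsp70Aa, Hsp70Ab and Hsp70Bc overlapped. Shares of 1 sum depend on each other, so these are not separate observations. Hsp70Bb and Hsp70Bbb have the same annotated length of 2347 bp, yet the value of Hsp70Bb was 21.3, 29.2 and 20.4 times that of Hsp70Bbb in H1 RNAi A, B and C and 16.9, 11.2 and 10 times in control A, B and C. These shares were computed after the values were seen and were not tested.

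Copy by copy, Hsp70Ba was at 23.8, 27.3 and 25.5 TPM in H1 RNAi A, B and C, against 74.8, 31.8 and 47.8 TPM in control A, B and C. Every H1 RNAi library was below every control library, and the control values themselves spread over more than 2-fold. The log2 fold change was -0.90 ± 0.28 (SE), with a 95% interval of -1.57 to -0.24 and an adjusted p of 0.121 (limma). Hsp70Ba passed the threshold without control B (log2 fold change -1.2, adjusted p = 0.0237) and with library weights (-1.0, adjusted p = 0.0471), where 0.751% and 1.24% of all tested genes were called lower, and its adjusted p over all alternatives ran from 0.0237 to 0.317. Hsp70Bbb was at 7.91, 7.10 and 6.33 TPM in H1 RNAi and 13.3, 10.2 and 9.33 TPM in control (log2 fold change -0.54 ± 0.16, adjusted p = 0.113), again without overlap. Hsp70Bc was at 17.8, 18.7 and 18.8 TPM in H1 RNAi and 23.9, 20.2 and 21.2 TPM in control (log2 fold change -0.22 ± 0.10, adjusted p = 0.231).

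The other copies overlapped between the groups. Hsp70Bb, the highest, was at 169, 207 and 129 TPM in H1 RNAi A, B and C and 223, 113 and 93.3 TPM in control A, B and C, and its log2 fold change was positive at 0.31 ± 0.34 (SE, 95% interval -0.49 to 1.11, adjusted p = 0.623, limma). Hsp70Ab was at 46.5, 41.4 and 37.5 TPM in H1 RNAi and 63.5, 38.0 and 50.2 TPM in control. Hsp70Aa, the lowest, was at 3.00, 2.43 and 1.85 TPM in H1 RNAi and 3.71, 4.47 and 2.58 TPM in control. Thus 5 of the 6 copies had a negative fold change and the most abundant had a positive one. Hsp70Ab shares 27 bp with CG3281 on the other strand, which was at 5.49 to 8.79 TPM in every library.

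Hsp68, a heat-inducible relative of Hsp70 encoded elsewhere on 3R, was at 660, 579 and 411 TPM in H1 RNAi A, B and C, against 1244, 619 and 598 TPM in control A, B and C. Control A was the highest library by far, and the H1 RNAi values overlapped those of the other controls. Its log2 fold change was -0.52 ± 0.31 (SE, 95% interval -1.26 to 0.23, adjusted p = 0.360, limma). Hsp83, the cytosolic Hsp90 (3L, 3192969 to 3197059), was at 1516, 1500 and 1008 TPM in H1 RNAi and 2782, 1252 and 1764 TPM in control. These groups overlapped too, and the log2 fold change was -0.47 ± 0.30 (SE, 95% interval -1.19 to 0.24, adjusted p = 0.382). Both values moved with control A: without it the log2 fold changes were -0.17 for Hsp68 and -0.17 for Hsp83. Hsp110, the nucleotide exchange factor of Hsp70, was at 200, 168 and 149 TPM in H1 RNAi and 223, 195 and 197 TPM in control (log2 fold change -0.26 ± 0.14, adjusted p = 0.312).

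The abundant constitutive Hsp70 cognates work in the cytosol, the mitochondria and the ER, and their within-group SD on the log2 scale was 0.135 for Hsc70-4, 0.190 for Hsc70-5 and 0.659 for Hsc70-3. Hsc70-4, the main cytosolic cognate, which also uncoats clathrin vesicles, was at 5397, 4864 and 4483 TPM in H1 RNAi A, B and C and 5798, 4811 and 5193 TPM in control A, B and C. Its log2 fold change was -0.10 ± 0.10 (SE, 95% interval -0.33 to 0.13, adjusted p = 0.568, limma), and the groups overlapped. Hsc70-5, the mitochondrial cognate, was at 291, 289 and 246 TPM in H1 RNAi and 264, 293 and 214 TPM in control. Hsp60A, the mitochondrial chaperonin, was at 759, 761 and 732 TPM in H1 RNAi and 716, 801 and 621 TPM in control, with a log2 fold change of 0.08 ± 0.11 (SE, 95% interval -0.18 to 0.35). Both mitochondrial genes overlapped between the groups, and both fold changes turned to -0.02 and -0.05 with trimmed-mean scaling.

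Hsc70-3 encodes BiP, the Hsp70 of the ER lumen and a target of the unfolded protein response. It was at 2279, 1658 and 2032 TPM in H1 RNAi A, B and C and at 1681, 4215 and 1275 TPM in control A, B and C. Control B was the highest library and control C the lowest, so the control values enclosed those of H1 RNAi. The log2 fold change was -0.08 ± 0.42 (SE, 95% interval -1.08 to 0.92, adjusted p = 0.930, limma), and without control B it was 0.43 (adjusted p = 0.163). Other ER genes had the same library on top: control B was the highest control library for 25 of 25 tested ER chaperone and unfolded protein response genes, against 39.5% of all tested genes. It was the highest of all 6 libraries for 22 of these ER genes, against 19.3% of all tested genes. Gp93, the ER Hsp90, named after its values were seen, was at 792, 557 and 598 TPM in H1 RNAi and 583, 1113 and 417 TPM in control. Control B also had the highest sum of 8 fat body markers, at 89.1 TPM, against 2.70 to 4.56 TPM in the H1 RNAi libraries and 3.95 and 4.57 TPM in the other control libraries. The yolk protein genes Yp1, Yp2 and Yp3 made up most of it, at 43.5, 22.6 and 19.4 TPM in control B, while Fbp1 (0.88 TPM), apolpp (2.11 TPM) and Fbp2 (0 TPM) were near their levels in control A (0.97, 1.92 and 0.04 TPM). The stress gene TotC was at 27.1 TPM in control B and at 0.34 TPM or less elsewhere. The part of these values in the level of Hsc70-3 was not tested.

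The small heat shock genes taken by name lie in a cluster of 14184 bp at 67B on 3L, from Hsp67Bc to Hsp27. Hsp23 was at 2965, 2678 and 1456 TPM in H1 RNAi A, B and C and 4938, 2216 and 2169 TPM in control A, B and C. Hsp26 was at 2417, 2089 and 1314 TPM in H1 RNAi and 3292, 1823 and 2005 TPM in control. In both genes control A was the highest library, H1 RNAi C the lowest, and the groups overlapped. Hsp27, a nuclear and cytosolic member of the family, was at 610, 534 and 309 TPM in H1 RNAi and 756, 280 and 350 TPM in control, and Hsp67Bc, which binds starvin in selective autophagy, at 48.8, 35.2 and 23.1 TPM in H1 RNAi and 59.7, 40.5 and 36.1 TPM in control. The log2 fold changes were -0.35 ± 0.39 for Hsp23, -0.29 ± 0.29 for Hsp26, 0.15 ± 0.41 for Hsp27 and -0.37 ± 0.29 for Hsp67Bc (SE, adjusted p of 0.637, 0.594, 0.860 and 0.486, limma). Without control A they were 0.04, -0.02, 0.57 and -0.16, so the sign of Hsp23 rested on that library.

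Hsp67Ba, the lowest tested gene of the cluster, was at 7.83, 4.42 and 1.92 TPM in H1 RNAi A, B and C and 12.2, 5.86 and 2.43 TPM in control A, B and C. It had the widest spread of the members, with a within-group SD of 0.890 on the log2 scale, and its log2 fold change was -0.38 ± 0.57 (SE, 95% interval -1.73 to 0.96, adjusted p = 0.725, limma). On the opposite strand, asRNA:CR43481 shares 1316 of its 1733 exonic bases. That antisense RNA was at 11.9, 8.90 and 3.97 TPM in H1 RNAi and 16.1, 8.80 and 3.83 TPM in control, with control A the highest library for both genes. The labels name a stranded kit, with no word on the strand setting of the counting, so reads of the overlapping genes may not be told apart.

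J-domain proteins select the clients of Hsp70 and Hsc70. Droj2, a J-domain partner of Hsc70 in the cytosol, was at 300, 287 and 262 TPM in H1 RNAi A, B and C, against 337, 309 and 308 TPM in control A, B and C. Its groups did not overlap, and the log2 fold change was -0.17 ± 0.11 (SE, 95% interval -0.43 to 0.09, adjusted p = 0.383, limma). The J-domain protein mrj, known as a suppressor of polyglutamine aggregation, was at 63.9, 63.5 and 69.3 TPM in H1 RNAi and 57.8, 56.3 and 57.97 TPM in control. It had the lowest within-group SD of the tested members, 0.0514 on the log2 scale, and every H1 RNAi value lay above every control value. Its log2 fold change of 0.19 ± 0.09 (SE, 95% interval -0.03 to 0.41, adjusted p = 0.271) was close to the median of 0.14 of all tested genes, and it was 0.06 with trimmed-mean scaling and 0.08 with quantile normalization.

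The remaining J-domain genes were spread over a wide range of levels. DnaJ-1, the fly Hsp40 that is itself heat-inducible, was at 244, 308 and 277 TPM in H1 RNAi A, B and C and 384, 211 and 325 TPM in control A, B and C (log2 fold change -0.11 ± 0.23, adjusted p = 0.806, limma). DnaJ-H was at 27.9, 29.6 and 26.1 TPM in H1 RNAi and 23.8, 25.8 and 24.6 TPM in control, without overlap, and its log2 fold change of 0.16 ± 0.09 (adjusted p = 0.331) was 0.04 with trimmed-mean scaling and 0.00 with quantile normalization. DnaJ-H shares 509 exonic bases with Sirt1 on the other strand, which was at 60.6 to 65.1 TPM in H1 RNAi and 68.0 to 77.1 TPM in control. Hsc20, a mitochondrial J-domain protein of iron-sulfur cluster assembly, was at 11.2, 18.4 and 17.7 TPM in H1 RNAi and 9.42, 16.6 and 12.8 TPM in control, and replicate A was the lowest library in both groups. The BAG cochaperone stv (starvin) was at 93.8, 116 and 88.5 TPM in H1 RNAi and 114, 95.8 and 84.5 TPM in control, with a log2 fold change of 0.02 ± 0.16 (95% interval -0.35 to 0.39, adjusted p = 0.950).

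**Figure D3:**
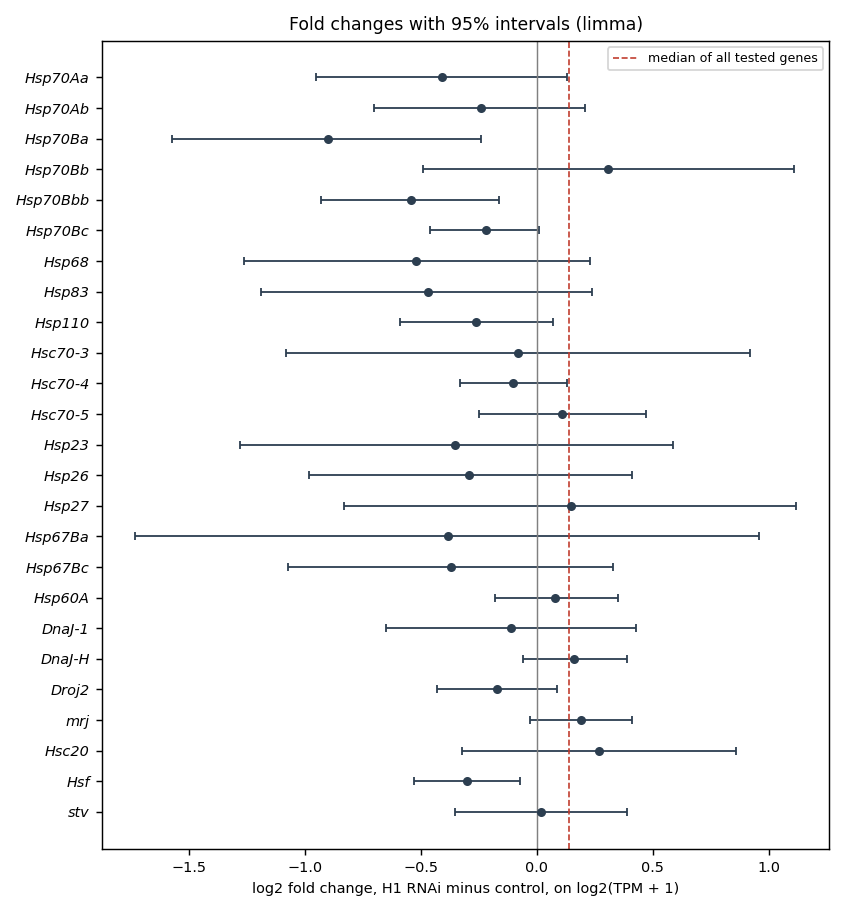
Log2 fold change (H1 RNAi minus control, on log2(TPM + 1)) of the 25 tested members with 95% intervals from limma, the grey line at 0 and the dashed red line at the median of all tested genes, 0.14. Intervals are narrow for Hsf (-0.53 to -0.07) and mrj (-0.03 to 0.41) and wide for Hsp67Ba (-1.73 to 0.96) and Hsc70-3 (-1.08 to 0.92).

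The order of the libraries was shared by many inducible genes. Among 14 tested inducible members (the 6 Hsp70 copies, Hsp68, Hsp83, the 5 small heat shock genes and DnaJ-1), control A was the highest control library for 13 and H1 RNAi C the lowest H1 RNAi library for 11. Over all 8124 tested genes the shares were 43.1% and 50.7%. H1 RNAi A was the highest H1 RNAi library for 10 of the 14. The 6 Hsp70 copies count separately here, although the split of reads between them is uncertain. Against the mean of the other libraries of its group, the median member differed by 0.21 in H1 RNAi A, 0.09 in H1 RNAi B and -0.22 in H1 RNAi C on the log2 scale, where the median of all tested genes differed by 0.07, 0.03 and -0.10. In the control group the median member differed by 0.33 in control A, -0.12 in control B and -0.29 in control C, where that of all tested genes differed by 0.06, 0.03 and -0.11. Replicate A thus stood high and replicate C low in both groups. The chaperonin CCT, the cytosolic folding ring for actin and tubulin, had the same order, with control A the highest control and H1 RNAi C the lowest H1 RNAi library for 8 of 8 subunits. The order was thus not particular to inducible genes. Of 6 prefoldin genes, 6 and 6 had these libraries at those places, and of 13 cochaperones 11 and 12. The counts were 5 and 8 of 9 mitochondrial genes, 12 and 14 of 27 other J-domain genes, 3 and 2 of 13 stress genes, and 0 and 8 of 25 ER genes. The 25 members had a median within-group SD of 0.279 on the log2 scale, against 0.192 for all tested genes, and 9 of them were below that value.

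**Figure D4:**
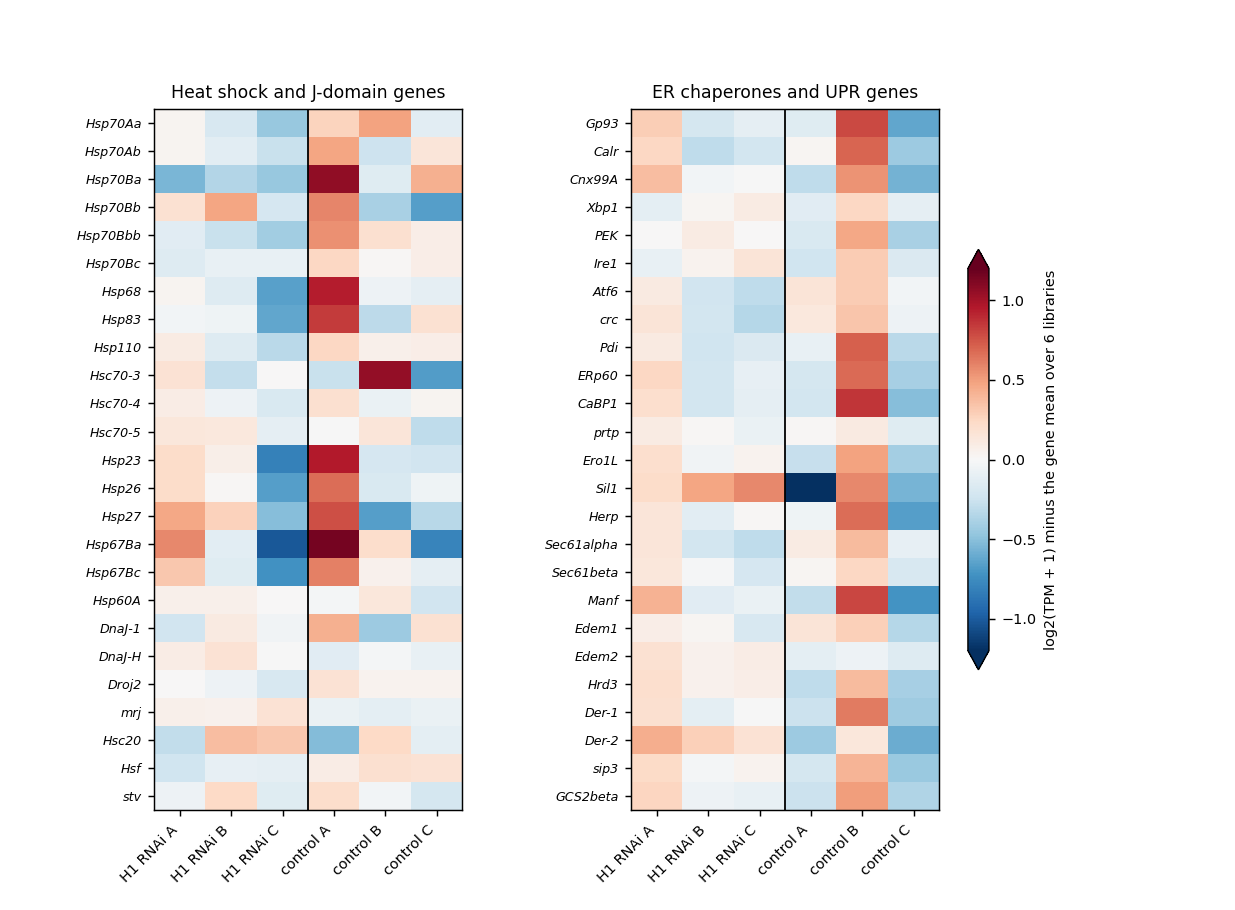
Heat maps of log2(TPM + 1) minus the gene's mean over the 6 libraries, for the 25 tested members (left) and the 25 tested ER chaperone and unfolded protein response genes (right), with H1 RNAi libraries left of the black line and control libraries right of it. Control A is the highest control library for 17 of the 25 members, against 43.1% of all tested genes. Control B is the highest control library for 25 of the 25 ER genes, against 39.5% of all tested genes.

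The members differed in gene structure. Every annotated transcript had 1 exon in 13 of the 32 genes: the 6 Hsp70 copies, Hsp68, Hsp23, Hsp26, Hsp27, Hsp67Ba, Hsp67Bc and Hsp60B. Of these, 12 were tested, all of them among the 14 inducible members above. The genes with introns included the cognates, Hsf, stv and the J-domain genes.

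Genes of the wider folding network gave no call over all genes, and the signs of some of their medians depended on the scaling. With trimmed-mean scaling those of prefoldin (-0.02), cochaperones (-0.03), ER genes (-0.11) and stress genes (-0.02) were negative. Those of mitochondrial genes (0.09) and other small heat shock genes (0.12) stayed positive. With quantile normalization the ER median was negative (-0.05), while prefoldin (0.02), cochaperones (0.02) and stress genes (0.07) stayed positive. Of 8 tested CCT subunits, 0 passed and 0 had an unadjusted p under 0.05 (limma), and their median log2 fold change was 0.00. CCT8 was at 355 ± 52.9 TPM in H1 RNAi and 313 ± 21.3 TPM in control (SD, n = 3 each, adjusted p = 0.503), while CCT6 and CCT7 had log2 fold changes of 0.13 (0.00 with trimmed-mean scaling) and -0.09. Of 6 tested prefoldin subunits, which hand clients to CCT, 0 passed and the median was 0.11. At an unadjusted p under 0.05 (limma) there was 1 (16.7%), against 23.8% of all tested genes. That was Pfdn1, at 93.9 ± 11.5 TPM in H1 RNAi and 65.9 ± 3.14 TPM in control (log2 fold change 0.50 ± 0.12, adjusted p = 0.0810), with no overlap, while Pfdn4 and Pfdn2 had log2 fold changes of 0.29 and 0.14.

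Among cochaperones of Hsp70 and Hsp90, 0 of 13 tested passed the threshold, with a median log2 fold change of 0.11. At an unadjusted p under 0.05 (limma) there were 2 (15.4%), against 23.8% of all tested genes. HIP, an Hsp70-interacting protein, was at 12.7 ± 2.63 TPM in H1 RNAi and 7.56 ± 1.19 TPM in control (SD, n = 3 each, log2 fold change 0.67 ± 0.18, adjusted p = 0.0954). STUB1, the ubiquitin ligase that acts on Hsp70 clients, was at 25.8 ± 1.86 TPM in H1 RNAi and 20.5 ± 1.58 TPM in control (adjusted p = 0.135), and Sgt had a log2 fold change of 0.28. HIP and STUB1 did not overlap between the groups. The neighbouring gene HIP-R, named after its values were seen, had the opposite sign, at 11.2 ± 1.19 TPM in H1 RNAi and 13.8 ± 1.45 TPM in control (log2 fold change -0.28), and how reads that match both genes were counted is not stated. Of 27 tested J-domain genes with other names, 0 passed, 4 (14.8%) had an unadjusted p under 0.05, and the median was 0.13. CG17187 was at 22.1 ± 2.79 TPM in H1 RNAi and 14.4 ± 3.75 TPM in control (log2 fold change 0.61 ± 0.19, adjusted p = 0.117), and it passed without control B (adjusted p = 0.0280, 4.79% of all tested genes called higher) and with library weights (0.0394, 5.49% called higher), with a range of 0.0280 to 0.364 over all alternatives. The endocytic gene Rme-8 and CG14650 had log2 fold changes of 0.29 and 0.33.

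Of 2 tested small heat shock genes with other names, 0 passed and 1 had an unadjusted p under 0.05 (limma), against 23.8% of all tested genes. CG14207 (HspB8 among its RefSeq synonyms), the partner of starvin in chaperone-assisted autophagy, was at 127 ± 13.4 TPM in H1 RNAi and 95.4 ± 11.9 TPM in control (SD, n = 3 each, log2 fold change 0.41, adjusted p = 0.139), with no overlap. CG7409 had a log2 fold change of 0.05. Of 25 tested ER genes, 0 passed, 1 (4%) had an unadjusted p under 0.05 and the median was 0.02. The ER degradation gene Der-2 was at 47.4 ± 4.46 TPM in H1 RNAi and 31.8 ± 9.19 TPM in control (log2 fold change 0.60 ± 0.20, adjusted p = 0.135), and the BiP exchange factor Sil1 at 49.6 ± 6.31 TPM in H1 RNAi and 31.3 ± 21.1 TPM in control (adjusted p = 0.285). Edem2 had a log2 fold change of 0.22 (0.01 to 0.24 over all settings). Without control B, Der-2 (adjusted p = 0.0209) and Sil1 (0.0264) passed as higher and the ER median was 0.32, where 4.79% of all tested genes were called higher. Over all alternatives the adjusted p ran from 0.0209 to 0.359 for Der-2 and from 0.0264 to 0.540 for Sil1.

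Of 9 tested mitochondrial proteases and import chaperones, 0 passed, and the median log2 fold change was 0.23. A raw p below 0.05 (limma) was found for 2 (22.2%), against 23.8% of all tested genes. The import receptor gene Tom70 was at 35.3 ± 4.63 TPM in H1 RNAi and 25.6 ± 2.56 TPM in control (SD, n = 3 each, log2 fold change 0.45 ± 0.13, adjusted p = 0.111), and Tom20 and ClpP had log2 fold changes of 0.38 and 0.27. Of 13 tested stress-response genes that are not chaperones, 0 passed, 2 (15.4%) had an unadjusted p under 0.05 and the median was 0.11. The polyubiquitin-family gene Ubi-p5E was at 546, 792 and 743 TPM in H1 RNAi A, B and C, against 389, 419 and 463 TPM in control A, B and C. Every H1 RNAi value was above every control value, and the log2 fold change was 0.70 ± 0.16 (SE, 95% interval 0.31 to 1.08, adjusted p = 0.0716). It passed with library weights (adjusted p = 0.0378, with 5.49% of all tested genes called higher), with a range of 0.0378 to 0.270 over all alternatives. Thor, a translation inhibitor, had a log2 fold change of 0.41. The heat-inducible noncoding RNA lncRNA:Hsromega was at 27.9 ± 2.70 TPM in H1 RNAi and 23.7 ± 0.602 TPM in control, without overlap (log2 fold change 0.23, adjusted p = 0.235). Its log2 fold change ran from 0.06 to 0.30 over all settings, and the median of all tested genes was 0.14. Of all tested genes, 24.3% were higher in H1 RNAi without overlap.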

How the data were processed

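RNA-seq of sorted GFP-positive midgut progenitors was deposited by the authors as TPM per gene and library, 1 column per library, rounded to 2 decimals. Per the submitters' processing notes, bcl2fastq and the dm6 build were used. The sources used here do not name the aligner, counter, strand setting or annotation, or how multi-copy genes were handled, and depth and counting error are unknown. Symbols came from a table that paired 17709 of 17807 identifiers, and coordinates from Ensembl release annotation BDGP6.54 (dm6 coordinates, 1-based). Sequences and promoter motifs were not analysed here.

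Genes at 1 TPM or more in 3 or more of the 6 libraries (8124) were fitted as log2(TPM + 1) with limma 3.58.1 in R 4.3.3, with mean trend and robust moderation. P-values were adjusted by Benjamini and Hochberg at 0.05. Fold changes on this scale understate changes of low genes. On 10 simulated data sets of this comparison with 8124 genes the fit recovered 86.5% of 2-fold and 97.7% of 4-fold changes, with 4.78% false calls. Changes were planted only in genes above 5 TPM in control, with independent normal noise at the moderated variance of each gene. The members varied more than the median tested gene (median within-group SD of 0.279 against 0.192), and recovery for them was not computed separately. An exact permutation test of 3 against 3 cannot go below p = 0.1 and was not used.

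The members, lists and tests were chosen with earlier results of these data known. Members given in every library were any that passed the test, the 8 with the highest mean, the 5 largest fold changes each way, the Hsp70 copies, and Hsf, stv, Droj2, mrj, Hsp83 and Hsc70-4 by name, with up to 3 genes of the smallest p from each other list. Other members, overlapping neighbours, Gp93, TotC, HIP-R and Cat were added after their values were seen. Alternatives were other pseudocounts and filters, trimmed-mean scaling (unweighted log ratios of TPM, trims of 0.3 and 0.05), quantile normalization, plain moderation, library weights, a replicate block, leaving out each library, and summing the Hsp70 copies.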

Additional observations from a re-analysis of the deposited data

How the results depend on the processing

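No member was called higher under any of the 16 alternatives. The number called lower was 0, except 1 (Hsp70Ba) with library weights and without control B, so 0 to 1 on leaving out each library. Under these settings 1.24% and 0.751% of all tested genes were called lower. The members' median ran from -0.27 to -0.03 on leaving out each library. Signs turned for DnaJ-1 (0.07 without control A), Hsp23 (0.04) and Hsp67Ba (0.10) without the same library, for Hsc70-3 (0.43) and Hsp27 (-0.15) without control B, and for Hsc70-5 (-0.02), Hsp60A (-0.01), stv (-0.08) and CG7409 (-0.06) without control C. They also turned for Hsp27 without H1 RNAi A (-0.05), for Hsc70-3 (0.05) and stv (-0.09) without H1 RNAi B, and for Hsp67Ba (0.03), CCT7 (0.03) and CG7409 (-0.08) without H1 RNAi C. With trimmed-mean scaling they turned for Hsc70-5 (-0.02), Hsp60A (-0.05), stv (-0.11), CCT6 (0.00) and CG7409 (-0.03), with quantile normalization for DnaJ-H (0.00), Hsc70-4 (0.00), stv (-0.09) and CG7409 (-0.08), and with library weights for Hsc70-3 (0.09). In the further lists, 1 ER gene (Der-2), 1 stress gene (Ubi-p5E) and 1 J-domain gene (CG17187) were called higher with library weights. Without control B, 2 ER genes (Der-2 and Sil1), 1 stress gene (Cat) and 1 J-domain gene (CG17187) were called higher. The shares of all tested genes called higher were 5.49% with library weights and 4.79% without control B. On leaving out any other library, 0 genes of the further lists were called. Medians that moved by more than the SD between replicates were those of J-domain genes outside the name rule (0.00 with trimmed-mean scaling, -0.02 with quantile normalization) and mitochondrial import genes (0.09 and 0.12). Those of ER genes (0.32 without control B) and other small heat shock genes (0.41 with a filter at 5 TPM, 0.05 with none) did so too. With trimmed-mean scaling the medians were -0.14 for CCT, -0.02 for prefoldin, -0.03 for cochaperones, -0.11 for ER genes and -0.02 for stress genes. Under that scaling these moved by less than the SD between replicates, but the signs of the last 4 turned. On leaving out each library, medians ran from -0.09 to 0.13 for CCT, 0.05 to 0.21 for prefoldin, 0.02 to 0.24 for cochaperones, 0.07 to 0.22 for other J-domain genes, 0.16 to 0.29 for other small heat shock genes, -0.16 to 0.32 for ER genes, 0.18 to 0.33 for mitochondrial genes and 0.01 to 0.30 for stress genes. On leaving out each library, the log2 fold changes of genes that turned ran from -0.43 to 0.43 for Hsc70-3, -0.55 to 0.04 for Hsp23, -0.15 to 0.57 for Hsp27, -0.87 to 0.10 for Hsp67Ba, -0.02 to 0.21 for Hsc70-5, -0.01 to 0.17 for Hsp60A, -0.09 to 0.13 for stv, -0.36 to 0.07 for DnaJ-1, -0.19 to 0.03 for CCT7 and -0.08 to 0.20 for CG7409. The cause of these moves was not tested.

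Whether replicate letters pair the libraries was not settled, and the main fit did not use them. Deviations of libraries with the same letter correlated at 0.400 (A), 0.136 (B) and 0.093 (C) across genes. Libraries with different letters correlated at -0.284 to 0.169, and H1 RNAi C correlated best with control B (0.169). With the replicate block 142 of all tested genes were called, against 230 without it, and 0 members higher and 0 lower. Over the other settings the count for all genes ran from 29 without H1 RNAi B to 547 with library weights.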
